A study of Mus musculus with 9 samples.

Results

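miR-741, miR-743a, miR-743b, miR-871, miR-878, miR-880, miR-881 and miR-883a are made from hairpins that lie close together on the mouse X chromosome, in a group of miRNA genes best known from the testis. They were followed here in epididymosomes, the small membrane vesicles found in the fluid of the epididymis, the duct in which spermatozoa mature after they leave the testis. Members were taken by name: every miRNA of the deposited table numbered as miR-201, miR-547, miR-741, miR-742, miR-743, miR-871, miR-878, miR-880, miR-881 or miR-883. This gave 9 of the 358 miRNAs, namely 7 from the 3p and 2 from the 5p arm of 8 hairpins, and 7 of the 10 numbers had a row. The vesicles came from the caput, corpus and cauda, which spermatozoa pass in this order, of male Swiss mice aged 8 weeks, with no treatment or transgene in the labels. Each segment had 3 libraries, and the RNA of several mice was pooled for each library, which makes the spread between replicates that between pools and not between single mice. The vasculature had been perfused before dissection, and the vesicles were purified on a density gradient.

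Background on this locus is of use for the values that follow. A miRNA hairpin is cut into a 5p and a 3p strand, and the strand that is kept guides an Argonaute protein to mRNAs, mainly through bases 2 to 8 of the miRNA, the seed. The X-linked miRNA genes between Slitrk2 and Fmr1 form a large, fast-evolving group of tandem copies in mammals, and are expressed mainly in male germ cells, where several escape the silencing of the X chromosome at meiosis. In the epididymis, vesicles are released by the epithelium, while spermatozoa and their cytoplasmic droplets pass through the same fluid. No testis or sperm library was analysed here, so the tissue of origin in the name of the group was not checked against these data.

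All 8 hairpins lay on the minus strand of chromosome X of GRCm38, within 33.7 kb. The one with the lowest coordinates was that of miR-743a, Mir743, at chrX:66776757-66776818, and 437 bases further stood Mir743b at chrX:66777256-66777332. Mir883a followed at chrX:66780758-66780833 and, after the widest gap of 15971 bases, Mir741 at chrX:66796805-66796875. The next hairpins were packed closely, with Mir880 at chrX:66800530-66800607, Mir878 at chrX:66801508-66801585 and Mir881 only 358 bases further at chrX:66801944-66802021. Mir871, which gives both miR-871-5p and miR-871-3p, was the last at chrX:66810428-66810504. The annotated span holds 12 miRNA genes and 1 processed pseudogene. Mir463 and Mir471 are interleaved with the members, and Mir742 and Mir883b had no row in the table. None of the 8 hairpins overlapped another annotated gene, and so none was exonic or intronic to a host gene. The nearest protein-coding genes were Slitrk2, 115 kb below the span, and Gm1140, 872 kb above it.

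The mature sequences of the 9 members are shown so that their seeds, in capitals, can be compared. They are the RefSeq sequences for GRCm38, written 5′ to 3′.
miR-743a-3p: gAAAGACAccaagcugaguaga
miR-743b-3p: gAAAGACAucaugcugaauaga
miR-883a-3p: uAACUGCAacagcucucaguau
miR-741-3p: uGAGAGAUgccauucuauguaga
miR-880-3p: uACUCCAUccucucugaguaga
miR-878-5p: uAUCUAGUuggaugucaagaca
miR-881-3p: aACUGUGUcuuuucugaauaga
miR-871-3p: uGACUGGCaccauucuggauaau
miR-871-5p: uAUUCAGAuuagugccagucaug

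The 9 members carried 8 distinct seeds. Only miR-743a-3p and miR-743b-3p had a seed in common, AAAGACA, and of the 299 miRNAs of the table with a RefSeq mature sequence no other had the seed of any member. These paralogues were identical at 19 of 22 bases and differed by C9U, A12U and G18A, counted from the 5′ end with the base of miR-743a-3p first. Members with different seeds could still be alike further on. miR-880-3p and miR-881-3p matched at 15 of 22 positions, and 5 members (miR-741-3p, miR-743a-3p, miR-743b-3p, miR-880-3p and miR-881-3p) ended in UAGA. This 3′ end was found in 3 of the other 290 sequences (1.03%), and all 3 were neighbours from the same chromosomal region, miR-465a-3p, miR-465b-3p and miR-465c-3p. GGAG and CCCU, short motifs that have been linked to the loading of miRNAs into vesicles, were each found in 0 of the 9 members, against 7.93% and 8.28% of the other sequences, read on the mature strand only. miR-883a-3p differs from miR-883b-3p, which had no row, by G12U alone, so its value may hold reads of both.

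Levels are given in CPM, the reads of a miRNA in each 1000000 reads counted on miRNAs in the same library. The libraries held 1548581 to 11306605 such reads, with the 3 caput libraries the deepest. The floor of 3 reads lay between 0.265 and 1.94 CPM, and no member fell below 7 reads in any library. The floors cover counting error only. Scaling by the total also matters here, because the median miRNA rose from caput to corpus and cauda on the CPM scale. By TMM, which scales libraries by the bulk of their miRNAs, caput replicates 2 and 1 had factors of 0.478 and 0.753 against 1.08 to 1.29 for the other libraries. The counts of members and of other lists called by limma are therefore given with TMM scaling too. Since whole vesicle preparations were sequenced, fewer vesicles with a miRNA and less of it per vesicle cannot be told apart.

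Together the 9 members were scarce in the caput and several times more abundant in both distal segments. Their summed level was 183, 123 and 106 CPM in the 3 caput libraries (137 ± 40.1, SD, n = 3). It was 652, 591 and 570 CPM in the corpus (604 ± 42.7, SD, n = 3) and 607, 653 and 986 CPM in the cauda (749 ± 207, SD, n = 3). Every corpus and cauda library thus lay above every caput library, while corpus and cauda overlapped. Even at their highest the members took 0.0986% of the reads of a library. A mean of 10 CPM, the detection limit used by the authors, was reached by 4 members in the caput, 8 in the corpus and all 9 in the cauda.

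**Figure D1:**
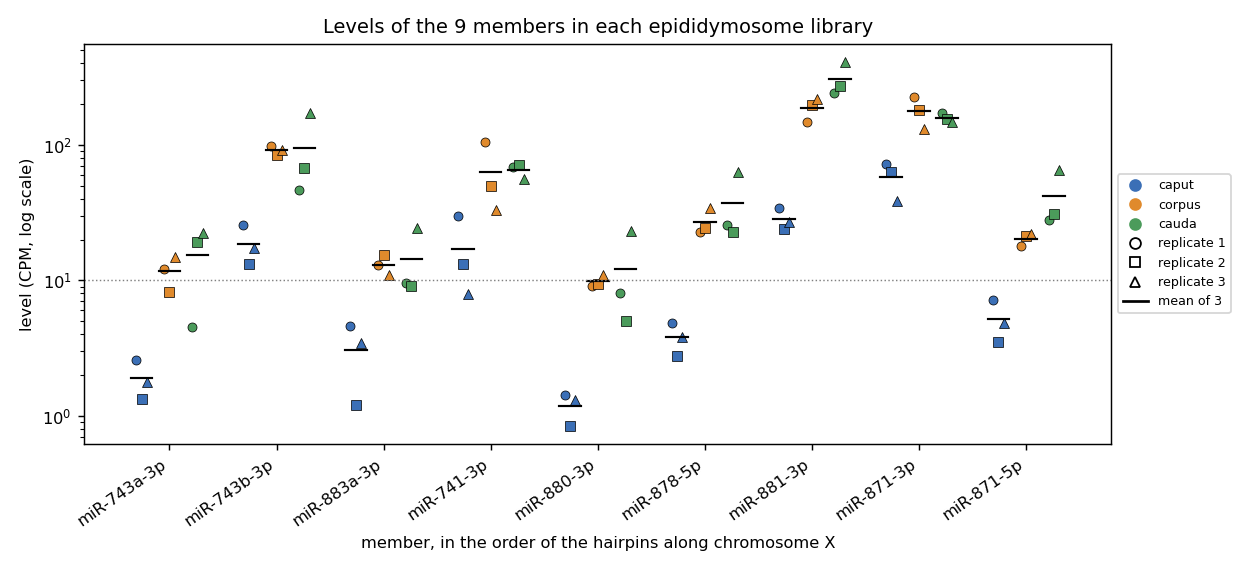
Level of each member in CPM, on a log scale, in the 3 caput, 3 corpus and 3 cauda libraries; symbols mark the replicate, short lines the mean of 3 libraries and the dotted line 10 CPM. On the CPM scale all corpus and cauda libraries lie above all caput libraries for every member, from miR-880-3p, with a caput mean of 1.19 CPM, to miR-871-3p, with 58.1 CPM. The same held for 29.3% of all miRNAs tested between caput and corpus and 42.4% between caput and cauda. With TMM scaling overlap was not counted.

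The main products of the cluster were miR-881-3p and miR-871-3p, the members with the highest mean levels. miR-881-3p had 34.1, 24.1 and 27.2 CPM in caput, 148, 196 and 220 CPM in corpus and 243, 272 and 409 CPM in cauda libraries. The segments of miR-881-3p did not overlap at either step. miR-871-3p had 72.3, 63.2 and 38.8 CPM in caput, 225, 182 and 132 CPM in corpus and 173, 155 and 149 CPM in cauda libraries. It was the most abundant member in each caput library, rose to the corpus and overlapped between corpus and cauda.

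miR-743b-3p and miR-741-3p were of intermediate abundance. miR-743b-3p had 25.5, 13.1 and 17.2 CPM in caput, 98.1, 84.6 and 92.3 CPM in corpus and 46.5, 67.7 and 173 CPM in cauda libraries. Its corpus libraries were close together, whereas its cauda libraries lay on both sides of them. miR-741-3p had 30.1, 13.2 and 7.93 CPM in caput, 106, 50.1 and 32.9 CPM in corpus and 69.0, 71.4 and 56.5 CPM in cauda libraries. Here the gap to the caput was narrow, since the lowest corpus library was just above the highest caput library.

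The remaining members were minor. miR-871-5p, from the other arm of Mir871, had 7.16, 3.50 and 4.85 CPM in caput, 17.8, 21.1 and 22.0 CPM in corpus and 28.0, 31.1 and 65.8 CPM in cauda libraries. miR-878-5p had 4.86, 2.78 and 3.79 CPM in caput, 22.8, 24.3 and 34.2 CPM in corpus and 25.5, 22.9 and 63.4 CPM in cauda libraries. For miR-871-5p the order caput, corpus, cauda held without overlap, and for miR-878-5p corpus and cauda overlapped. miR-743a-3p had 2.56, 1.33 and 1.77 CPM in caput, 12.1, 8.22 and 14.9 CPM in corpus and 4.50, 19.2 and 22.4 CPM in cauda libraries. miR-883a-3p had 4.60, 1.21 and 3.43 CPM in caput, 12.9, 15.3 and 11.0 CPM in corpus and 9.49, 9.16 and 24.3 CPM in cauda libraries. Both lay near the detection limit in the distal segments, and both overlapped between corpus and cauda. The scarcest member was miR-880-3p, with 1.42, 0.846 and 1.30 CPM in caput, 9.05, 9.40 and 11.0 CPM in corpus and 8.00, 5.04 and 23.1 CPM in cauda libraries. In the caput this was 16, 7 and 11 reads.

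Abundance did not follow position in the cluster. Mir880, Mir878 and Mir881 lie within a few kilobases of each other, yet in the corpus miR-880-3p averaged 9.81 ± 1.03 CPM (SD, n = 3), miR-878-5p 27.1 ± 6.22 CPM (SD, n = 3) and miR-881-3p 188 ± 36.4 CPM (SD, n = 3). The levels of these 3 did not overlap in any segment, except those of miR-880-3p and miR-878-5p in the cauda. The paralogues miR-743a-3p and miR-743b-3p, 437 bases apart, also differed in level. The ratio of miR-743b-3p to miR-743a-3p was 9.93, 9.82 and 9.67 in caput, 8.09, 10.3 and 6.22 in corpus and 10.3, 3.52 and 7.74 in cauda libraries. It was thus above 3 in all 9 libraries and nearly the same in the 3 caput libraries. All members are 22 or 23 bases long, so that no correction for length was made, but how well each sequence was captured in library preparation was not measured.

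In the cauda the order of levels was headed by miR-881-3p, whose libraries were all above those of miR-871-3p. Below them, the levels formed no separate tiers. miR-743b-3p overlapped with miR-871-3p and miR-741-3p, and both miR-743b-3p and miR-741-3p with miR-871-5p and miR-878-5p. miR-871-5p overlapped with miR-878-5p, and miR-878-5p with miR-883a-3p and miR-880-3p. miR-743a-3p, miR-883a-3p and miR-880-3p overlapped with each other. In the caput the order began with miR-871-3p, whose libraries were all above those of miR-881-3p. miR-881-3p, miR-743b-3p and miR-741-3p overlapped there.

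The first comparison asked which miRNAs changed between caput and corpus. All 8 members that could be tested were higher in the corpus, each by 2-fold or more and with an adjusted p under 0.05 by limma with Benjamini-Hochberg adjustment. For comparison, 19.0% of the 321 miRNAs tested passed in this direction. Of these 8 members, 4 were under 10 CPM in the caput (miR-743a-3p, miR-871-5p, miR-878-5p and miR-883a-3p) and entered the test only through the corpus, so that a fall could not have been found for them. The 4 at 10 CPM or more in the caput, miR-741-3p, miR-743b-3p, miR-871-3p and miR-881-3p, could have been called in either direction, and all 4 were called higher. The smallest rise was that of miR-871-3p, a log2 fold change of 1.62 (standard error 0.41, adjusted p = 0.0106 by limma). miR-881-3p had the largest, 2.68 (standard error 0.40, adjusted p = 0.00036 by limma), which placed it eighth of the 321 by rise, and miR-878-5p was next among the members with 2.55 (standard error 0.47, adjusted p = 0.00142). miR-743b-3p rose by 2.29, miR-743a-3p by 2.13, miR-883a-3p by 1.88, miR-741-3p by 1.86 and miR-871-5p by 1.82, with adjusted p-values between 0.00367 and 0.0177. miR-880-3p was under 10 CPM on average in both segments and was not tested, and its fitted difference was 2.31 (standard error 0.52). The median over all 9 members was 2.13, against 0.47 over all miRNAs tested. On the CPM scale the libraries of the 2 segments did not overlap, with the corpus higher, for 9 of 9 members and for 29.3% of the miRNAs tested. Overlap was not counted with TMM scaling.

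Scaling mattered for the size of the rise between caput and corpus. With TMM the median of all tested miRNAs was -0.09, and the median of the 9 members was 1.69, so that relative to all miRNAs the members lay higher by 1.66 on the CPM scale and by 1.78 with TMM. With TMM 6 of the 8 members still passed, against 13.1% of the miRNAs tested. Of the 4 members at 10 CPM or more in the caput, only miR-743b-3p and miR-881-3p were among these 6. The others that passed had entered the test only through the corpus. With TMM miR-741-3p had a log2 fold change of 1.29 (adjusted p = 0.112 by limma) and miR-871-3p one of 1.05 (adjusted p = 0.0895). Corpus replicate 1 had the highest corpus value of both of these miRNAs, and without it their differences were 1.40 (adjusted p = 0.107) and 1.45 (adjusted p = 0.0619), while miR-880-3p entered the test and passed, so that 7 members did. Without corpus replicate 2, miR-883a-3p had 1.77 (adjusted p = 0.0568) and miR-880-3p again passed.

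**Figure D2:**
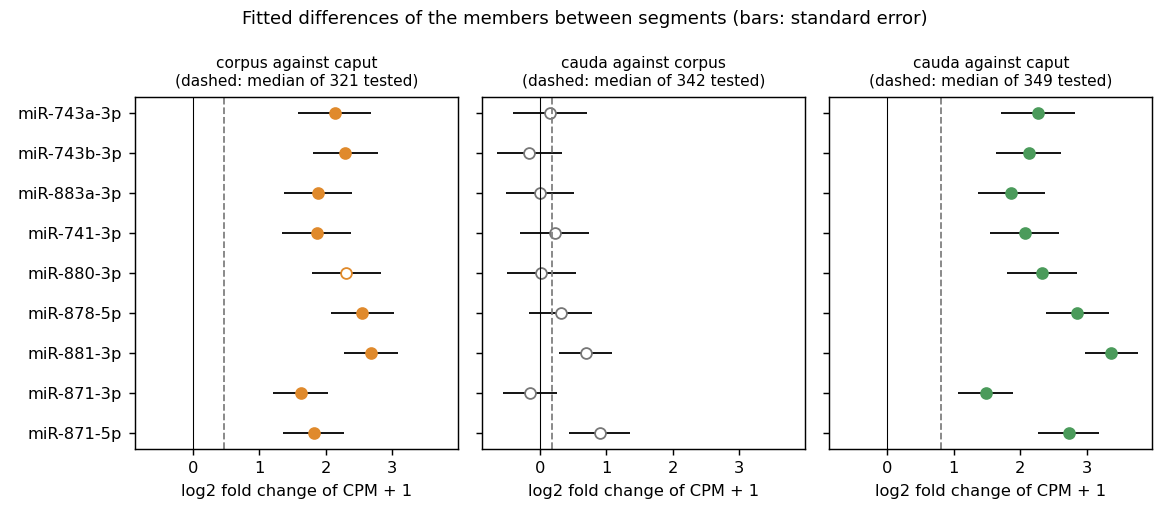
Fitted log2 fold change of CPM + 1 for each member (points, with standard errors as bars) in the 3 comparisons; filled points passed the limma test with a fold of at least 2, the solid line is 0 and the dashed line the median of all miRNAs tested (0.47, 0.18 and 0.81 from left to right). Members lie to the right of the dashed line in both comparisons with the caput and around it between corpus and cauda.

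Between corpus and cauda no member passed. Of 9 tested, 0 were called by limma with Benjamini-Hochberg adjustment, against 19.0% of the 342 miRNAs tested, higher or lower. None had an unadjusted p under 0.05, and the count was also 0 with limma-voom on the recovered reads and with TMM scaling. The median over the members was a log2 fold change of 0.15, against 0.18 over all tested. The libraries of miR-871-5p and miR-881-3p did not overlap on the CPM scale and were higher in the cauda. Their log2 fold changes were 0.90 (95% interval -0.06 to 1.87, adjusted p = 0.182 by limma) and 0.69 (95% interval -0.16 to 1.54, adjusted p = 0.255). For miR-871-3p the value was -0.15 with an interval of -1.01 to 0.72, and for miR-743b-3p it was -0.16 with an interval of -1.19 to 0.87. The intervals of the 9 members reached as low as -1.19 and as high as 1.87, so that a change of 2-fold in either direction was within the interval of several members at this number of libraries.

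The cauda libraries were themselves uneven. Cauda replicate 3 had the highest cauda value for 7 of the 9 members and the lowest for the other 2, miR-741-3p and miR-871-3p. Without it the difference from the corpus was -0.70 for miR-743b-3p, -0.24 for miR-743a-3p and 0.47 for miR-881-3p, and none passed. This library was the deepest of the cauda, and its summed level of leukocyte markers (5 miRNAs, among them miR-142a-3p and miR-223-3p) was 1601 CPM against 392 and 468 CPM in the other cauda libraries. Its sum of epithelial miRNAs was also the highest of the cauda (61155 against 44687 and 49605 CPM). Its sums of striated muscle (1258 against 2509 and 3725 CPM) and red blood cell miRNAs (1606 against 2225 and 2085 CPM) were the lowest, as was that of smooth muscle. In this library 10 rows of neighbouring X-linked miRNAs (of miR-463, miR-465, miR-470 and miR-471) also had their highest cauda sum (909 against 561 and 541 CPM). The germ cell miRNAs miR-34b, miR-34c and miR-449a had the middle one (1895 against 1611 and 1952 CPM). The part of any of these in the member values was not tested.

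Over the whole tract, from caput to cauda, all 9 members were called higher by limma with Benjamini-Hochberg adjustment. The rise was common in this comparison, with 38.7% of the 349 miRNAs tested called higher. Only 4 members, the same as above, were at 10 CPM or more in the caput. The other 5 were tested because they reached this level in the cauda, which left a rise as the one change that could be called. Since all 358 miRNAs of the table reach 10 CPM on average in some segment, leaving out the filter does not remove this limit. miR-881-3p had a log2 fold change of 3.37 (standard error 0.40, adjusted p = 6.8e-06 by limma), the largest of the members and seventeenth among all tested. Next came miR-878-5p with 2.86 and miR-871-5p with 2.73. miR-880-3p, at 12.0 ± 9.67 CPM (SD, n = 3) in the cauda, rose by 2.33, miR-743a-3p by 2.27, miR-743b-3p by 2.13, miR-741-3p by 2.07 and miR-883a-3p by 1.87. miR-871-3p changed least, with 1.48 (standard error 0.41, adjusted p = 0.00747). The median over the members was 2.27, against 0.81 over all tested. For all 9 the cauda libraries lay above the caput libraries without overlap on the CPM scale, as they did for 42.4% of the miRNAs tested. Overlap was not counted with TMM scaling. The caput libraries are shared with the comparison of caput and corpus, so the comparisons are not independent.

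With TMM scaling 7 of the 9 members passed from caput to cauda, against 24.9% of the miRNAs tested, and the median of all tested was 0.13. Of the 4 members at 10 CPM or more in the caput, only miR-743b-3p and miR-881-3p were among these 7. For the others that passed, a rise was the one change that could be called. miR-741-3p had 1.41 (adjusted p = 0.0633 by limma) and miR-871-3p 0.81 (adjusted p = 0.143), the same members that did not pass from caput to corpus with this scaling. The members' median was higher than that of all miRNAs by 1.46 on the CPM scale and by 1.61 with TMM. Without cauda replicate 3 the means of miR-880-3p and miR-883a-3p fell under 10 CPM and 7 members passed, with fitted differences for these miRNAs of 1.76 and 1.44.

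Rank within a library does not depend on how libraries are scaled. Counted from the most abundant of the 358 miRNAs, miR-881-3p stood at 174, 170 and 226 in caput, 119, 109 and 108 in corpus and 99, 101 and 89 in cauda libraries. It thus moved up at both steps without overlap. miR-871-3p stood at 137, 120 and 190 in caput, 100, 111 and 124 in corpus and 112, 129 and 135 in cauda libraries, so its ranks overlapped between all segments. miR-741-3p, at 178, 211 and 310 in caput, 136, 182 and 200 in corpus and 159, 167 and 192 in cauda libraries, overlapped likewise. miR-871-3p and miR-741-3p lost their calls with TMM scaling, but overlapping ranks did not single them out. Caput and cauda ranks also overlapped for miR-743b-3p (192 in caput replicate 1 and 193 in cauda replicate 1), miR-743a-3p and miR-883a-3p, whose calls were kept.

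The make-up of the member reads therefore differed along the tract. miR-881-3p accounted for 18.7% to 25.6% of the summed members in the caput, 22.7% to 38.5% in the corpus and 40.0% to 41.6% in the cauda. miR-871-3p went the other way, with 36.5% to 51.3%, 23.1% to 34.5% and 15.1% to 28.5%. The ratio of miR-881-3p to miR-871-3p within a library was 0.472, 0.380 and 0.701 in caput, 0.659, 1.08 and 1.67 in corpus and 1.40, 1.76 and 2.75 in cauda libraries. All cauda ratios were above 1 and all caput ratios below 1, while neighbouring segments overlapped. This ratio was chosen after its values were seen and was not tested. miR-741-3p kept a share of 5.73% to 16.5% over the 9 libraries, with no separation of the segments.

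**Figure D3:**
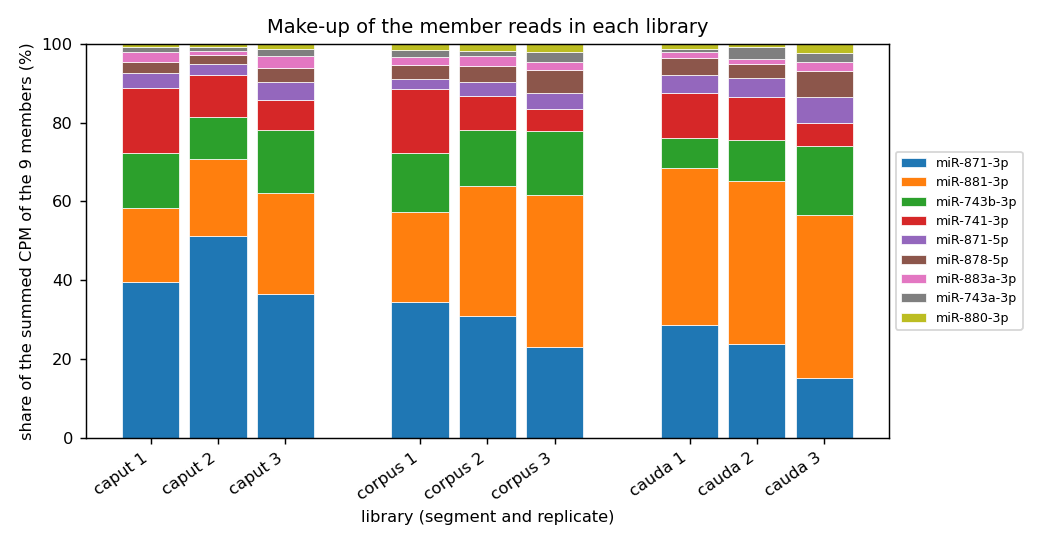
Share of each member, in percent, in the summed CPM of the 9 members for each library (stacked bars, which add up to the whole). The share of miR-871-3p is largest in the caput, at 36.5% to 51.3%, and that of miR-881-3p is largest in the cauda, at 40.0% to 41.6%.

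Of the member hairpins only Mir871 gave rows for both arms. miR-871-3p was the more abundant arm in all 9 libraries. The ratio of miR-871-5p to miR-871-3p was 0.0991, 0.0554 and 0.125 in caput, 0.0791, 0.116 and 0.167 in corpus and 0.162, 0.201 and 0.443 in cauda libraries. Every cauda ratio exceeded every caput ratio, and corpus overlapped with both. From caput to cauda the log2 ratio differed by 1.35 (standard error 0.46), which did not pass over the 64 hairpins tested (adjusted p = 0.0578 by limma with Benjamini-Hochberg adjustment, unadjusted p = 0.0117), where 15.6% passed. It passed when both arms had to reach 20 CPM, which left fewer hairpins in the test (adjusted p = 0.0450). The difference was 1.06 (adjusted p = 0.165) between corpus and cauda and 0.29 (adjusted p = 0.772) between caput and corpus. The ratio of 0.443 came from cauda replicate 3, and without this library the difference between caput and cauda was 0.92 (adjusted p = 0.130). A ratio within a library shows only that the arms changed unequally.

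**Figure D4:**
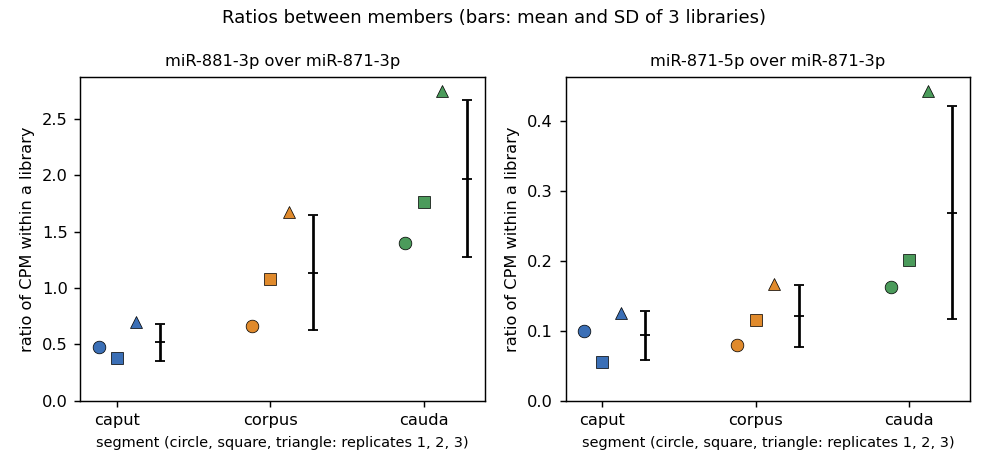
Ratio of CPM within each library for miR-881-3p over miR-871-3p (left) and for miR-871-5p over miR-871-3p (right), by segment; symbols are libraries and the bars beside them the mean and SD of 3 libraries. The left ratio is below 1 in all caput libraries and above 1 in all cauda libraries, and the right ratio is highest in cauda replicate 3, at 0.443.

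Across the 9 libraries the level of miR-881-3p varied most closely, outside the members, with those of neighbouring X-linked miRNAs. The profile most like that of miR-881-3p, the member with the highest mean, was sought among all other miRNAs by Pearson's correlation of log2(CPM + 1). Outside the members the closest were miR-465c-5p (r = 0.99, Spearman's rho = 0.98), miR-465a-5p (r = 0.98, rho = 0.95), miR-463-5p (r = 0.97, rho = 0.97) and miR-465b-3p with miR-465a-3p (both r = 0.96, rho = 0.85, and identical in every library). All 5 are made from the same region of the X chromosome. miR-465c-5p had 28.9, 14.5 and 18.1 CPM in caput, 115, 121 and 158 CPM in corpus and 127, 172 and 229 CPM in cauda libraries. Among the members, miR-878-5p and miR-871-5p were closest to miR-881-3p (both r = 0.98), and miR-871-3p (r = 0.86, rho = 0.50) and miR-741-3p (r = 0.81, rho = 0.67) were farthest. By r, miR-871-3p ranked 36 and miR-741-3p 58 among all other miRNAs of the table, so many outside the members were closer to miR-881-3p. These are descriptions over 9 libraries in 3 segments that share depth and scaling.

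The neighbouring X-linked miRNAs of the same region (miR-463, miR-465a, miR-465b, miR-465c, miR-470 and miR-471, 10 rows) rose as well. Among these, miR-465a-3p and miR-465b-3p had identical values in every library and miR-465c-3p nearly the same. The counts that follow therefore do not rest on 10 separate measurements. From caput to corpus 7 of the 7 tested were called higher by limma, also with TMM scaling, and from caput to cauda 10 of 10 were, or 9 with TMM. Over all miRNAs tested 19.0% and 38.7% were called higher in these comparisons, or 13.1% and 24.9% with TMM. Only 2 of the 10, miR-465c-5p and miR-470-5p, averaged 10 CPM or more in the caput. The others tested entered only through the distal segment, so that a fall could not have been found for them. Between corpus and cauda 3 of 10 neighbours were called higher with either scaling, where 14.0% of all tested miRNAs were on the CPM scale and 16.4% with TMM. Only 7 of the 10 averaged 10 CPM or more in the corpus, which set the same limit for miR-465b-5p, miR-470-3p and miR-471-5p. None of the 9 members was called higher, and the difference between these lists was not tested. The other 24 miRNAs of the table with hairpins on chromosome X are given for comparison. Of the 23 tested, 2 were called higher and 0 lower from caput to corpus, with a median of 0.48 against 0.47 over all tested, and with TMM 2 were higher and 1 lower. From caput to cauda 9 were called higher and 1 lower, with a median of 0.31 against 0.81, and with TMM 6 were higher and 6 lower, with a median of -0.33 against 0.13. Their difference from the members was not tested.

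A second group of miRNAs abundant in germ cells, miR-34b, miR-34c and miR-449a, whose genes are not on the X chromosome, was followed beside the members. The summed level of its 5 rows was 879, 199 and 783 CPM in caput, 417, 475 and 471 CPM in corpus and 1611, 1952 and 1895 CPM in cauda libraries. Caput and corpus overlapped for this sum, and the cauda lay above both. By limma 0 of the 5 passed from caput to corpus (1 with an unadjusted p under 0.05, and 0 passed with limma-voom or TMM scaling), 2 were called higher from corpus to cauda and all 5 from caput to cauda. With TMM scaling these counts were 3 and 3, and the shares over all miRNAs tested are those given above. miR-34c-3p averaged 5.98 CPM in the caput, so that a fall from there could not have been found for it. From caput to corpus none of these 5 was thus called, where 19.0% of all miRNAs tested were called higher, or 13.1% with TMM. On the CPM scale the corpus libraries lay above the caput libraries without overlap for 2 of the 5 and for 29.3% of all tested. The difference from the members was not tested, and 5 rows are few.

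The levels of markers of other cell types also differed along the tract. The 8 epithelial miRNAs of the miR-200 family and miR-141 summed to 21061 to 31929 CPM in the caput, 72124 to 84357 CPM in the corpus and 44687 to 61155 CPM in the cauda, and 2 of 8 were called higher from caput to corpus by limma, where 19.0% of all tested were. With TMM scaling 1 of the 8 was higher and 2 were lower. The 5 leukocyte miRNAs spanned 231 to 530 CPM, 515 to 1149 CPM and 392 to 1601 CPM in these segments. The 4 red blood cell miRNAs, of miR-451a, miR-144 and miR-486a, spanned 122 to 468 CPM in the caput, 234 to 659 CPM in the corpus and 1606 to 2225 CPM in the cauda. Striated muscle miRNAs (4 rows of miR-1a, miR-133a and miR-208b) lay at 52.5 to 184 CPM, 113 to 157 CPM and 1258 to 3725 CPM, and smooth muscle miRNAs (4 rows of miR-143 and miR-145a) at 50115 to 88995 CPM, 88423 to 121412 CPM and 291676 to 354786 CPM. The muscle and red blood cell sums were thus highest in the cauda, and the epithelial sum in the corpus. No marker was at 0 in all libraries of a segment. The part of these cell types in the member values was not tested.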

How the data were processed

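Small RNA of epididymosomes was sequenced in 9 libraries, 3 each of caput, corpus and cauda, grouped by the sample labels. The authors removed contaminant reads, counted the rest on known miRNAs with the miRDeep2 quantifier, divided by library size and used edgeR and limma. CASAVA 1.8.2 and Bowtie 1.1.1 are named in the submitters' processing notes. Genome build and miRBase release are not given in the sources used here. The deposited values are CPM of 358 miRNAs, although the table is named as counts. Within 0.1 read, 100% of them were whole multiples of 1 read, which gave library totals of 1548581 to 11306605 reads, so that 10 CPM stands for 15.5 to 113 reads.

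limma 3.58 (R 4.3) was fitted to log2(CPM + 1) of all 9 libraries, with segment as the factor and a trend. Benjamini-Hochberg adjustment covered all miRNAs with a mean of 10 CPM in at least 1 of the compared segments, and a call needed a 2-fold change and an adjusted p under 0.05. Fold changes on this scale understate those of scarce miRNAs. Arm ratios were tested on log2((5p + 0.5)/(3p + 0.5)) for 64 hairpins. The fits were tested on simulated data. Alternatives were TMM scaling, limma-voom on the recovered reads, other pseudocounts and filters, a replicate block, the 6 libraries compared, the adjusted p alone, and each library left out.

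All members are named, with the 5 most similar profiles. Lists of X-linked neighbours, germ cell miRNAs and cell type markers are given by counts. Members, lists and tests were chosen with earlier results of these data known. Coordinates are those of GENCODE and RefSeq for GRCm38, matched by hairpin name, and sequences are from RefSeq. Tables and plots were made with Python 3.11, numpy 2.4, pandas 2.3 and matplotlib 3.10.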

Additional observations from a re-analysis of the deposited data

How the results depend on the processing

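The members rose from the caput to both distal segments under every alternative, and single calls moved. From caput to corpus 6 to 9 members passed and from caput to cauda 6 to 9: 6 and 7 with TMM scaling, 6 and 7 with a pseudocount of 10, 6 and 6 with a filter at 20 CPM, 9 and 9 with no filter, and 8 and 9 with limma-voom, a pseudocount of 0.1, the compared libraries alone or the adjusted p alone. With 1 library left out the counts were 7 to 8 and 7 to 9. Between corpus and cauda the count was 0 throughout. A quasi-likelihood test of edgeR on the recovered reads had been planned and was not run. The rule set for such tests asks for more low values than the table holds. By the check described above, 100% of the values were whole multiples of 1 read. limma-voom, which does not need whole reads, was run on the recovered reads.

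Between corpus and cauda miR-871-5p and miR-881-3p stayed higher in the cauda under every alternative, though neither passed. With 1 library left out their log2 fold changes were 0.52 to 1.13 and 0.47 to 0.84. The fitted differences of the other members were small, and several changed sign. miR-880-3p was -0.07 with TMM scaling, and miR-883a-3p was 0.09 with limma-voom and 0.02 with a pseudocount of 10. With 1 library left out these differences ranged from -0.16 to 0.67 for miR-741-3p, -0.24 to 0.81 for miR-743a-3p and -0.70 to 0.24 for miR-743b-3p. They ranged from -0.35 to 0.03 for miR-871-3p, -0.14 to 0.58 for miR-878-5p, -0.55 to 0.45 for miR-880-3p and -0.43 to 0.22 for miR-883a-3p. The cause was not tested.

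The labels give the segments the same replicate numbers. Correlations of the deviations of same-numbered libraries were -0.21 to 0.41, with 6 of 9 over 0.1, and a library correlated best with its own number in 10 of 18 cases, so the numbers were not taken to pair the libraries. With a replicate block 8, 0 and 9 members passed in the 3 comparisons, as without it, but the arm ratio of miR-871 between caput and cauda then passed, so that the count of member hairpins was 1 in place of 0 (adjusted p = 0.0263 by limma). It was also 1 when both arms had to reach 20 CPM (adjusted p = 0.0450), and 0 with a pseudocount of 2 CPM or with any library left out. The shallow corpus and cauda libraries limit the members near 10 CPM, where the shallowest library has 15.5 reads.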
